A study of Capra hircus with 6 samples.

Results

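The genes described here encode the phosphoinositide 3-kinase (PI3K), AKT, FOXO and mTOR signalling pathway in the pineal gland of female goats (Capra hircus). Of 43 listed gene symbols, 39 had a row of their own among the 28244 genes of the count table, and all 39 had enough counts to be tested. GSK3B, IRS1, PIK3R2 and RPS6KB1 matched no symbol and were not analysed here. Their rows were found by gene symbol.

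In this pathway insulin and growth factor receptors recruit PI3K, a lipid kinase made of a catalytic and a regulatory subunit, to the cell membrane. The lipid it makes brings the kinases PDK1 and AKT together, and active AKT keeps FOXO transcription factors out of the nucleus and switches off the TSC complex. The small GTPase RHEB, freed from TSC, then turns on mTOR complex 1, which drives protein synthesis, while mTOR complex 2 phosphorylates AKT itself. The pineal gland secretes melatonin at night, and its main cell, the pinealocyte, is related to the photoreceptor.

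The 3 puberty libraries came from untreated pubertal goats, whose vulva was inflamed and whose ovaries held some mature follicles in histology, per the series description. The 3 prepuberty libraries came from untreated goats before puberty. No breed, age, season or time of day is given in the labels used here, and whether every library is from another goat is not stated, and the p-values below therefore describe the scatter among libraries, part of which may be technical. Bulk RNA of the gland was sequenced, so fewer cells of a type and less RNA per cell cannot be told apart.

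Library totals ran from 18864451 to 20971065 counts. The pinealocyte markers TPH1, ASMT and CRX lay between 724 and 3201 CPM (counts scaled to a common library total) in every library, as the labelled tissue would have, and AANAT matched no symbol. Puberty replicate 2 stood apart in choroid plexus transcripts, with 10090 CPM of TTR, against 464 and 206 CPM in puberty replicates 1 and 3 and 75.3 to 317 CPM in the prepuberty libraries. Marker sums of leukocytes were 279 to 509 CPM in puberty and 242 to 321 CPM in prepuberty, and those of astrocytes 6338 to 6541 CPM in puberty and 4321 to 5907 CPM in prepuberty. Those of endothelium and pericytes were 410 to 469 CPM in puberty and 398 to 604 CPM in prepuberty. Marker sums of oligodendrocytes were 315 to 322 CPM in puberty and 319 to 445 CPM in prepuberty, and those of fibroblasts and meninges 1004 to 1231 CPM in puberty and 781 to 1179 CPM in prepuberty. Of all tested genes, 5.85% were called higher in puberty and 5.64% lower. Of these marker lists, astrocyte genes had 2 of 9 tested members higher, the leukocyte list 1 of 17 and the oligodendrocyte list 1 of 10. The pinealocyte list had 1 of 17 higher and 1 lower, the fibroblast list 1 of 9 higher and 1 lower, and the lists of 6 choroid plexus and of 14 endothelial and pericyte genes had 0 in either direction. PAX4 of the pinealocyte list was at 0, and the part of other cell types in the results below was not tested.

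The libraries were compared to find transcripts of the gland whose level differed after the onset of puberty. Of the 9 PI3K subunits among the 39 members, 5 fell and 0 rose, where 5.64% of all tested genes fell and 5.85% rose. Of 4 PI3K subunit and adaptor genes tested outside the members, 0 were called, and the log2 fold change of all 4 was positive. PIK3CA, PIK3R1, PIK3R3, PIK3C2A and PIK3C3 were lower in puberty, as were the AKT-activating kinase gene PDPK1, the transcription factor gene FOXO3, the TSC complex gene TSC1 and RICTOR, the scaffold of mTOR complex 2. RHEB, which activates mTOR complex 1, was the only one of the 39 called higher. The falls were 1.33-fold to 1.57-fold and the rise 1.29-fold. With gene length taken into account, as described below, PIK3C2A, PIK3C3, PDPK1 and TSC1 did not pass.

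Counted against all 16588 tested genes (edgeR's quasi-likelihood test, Benjamini-Hochberg adjusted p under 0.05), 9 of 39 members were lower (23.1%), where 5.64% of all tested genes were lower. Higher calls were 1 of 39 (2.56%), where 5.85% of all tested genes were higher. The members were listed with earlier results of these data known, so these shares describe the list and are not independent evidence. Of 77 other tested genes of the pathway, 6.49% were lower and 5.19% higher. Calls were more frequent among well expressed genes: of those with a mean of at least 10 CPM, 7.72% were lower and 8.14% higher, and of the 35 members at that level 9 were lower (25.7%) and 1 was higher. The median log2 fold change of the members was -0.087, and that of all tested genes 0.0054. The groups did not overlap in CPM for 14 members that were lower (35.9%) and 6 that were higher (15.4%), where 17.6% and 17.2% of all tested genes did not overlap.

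**Figure D1:**
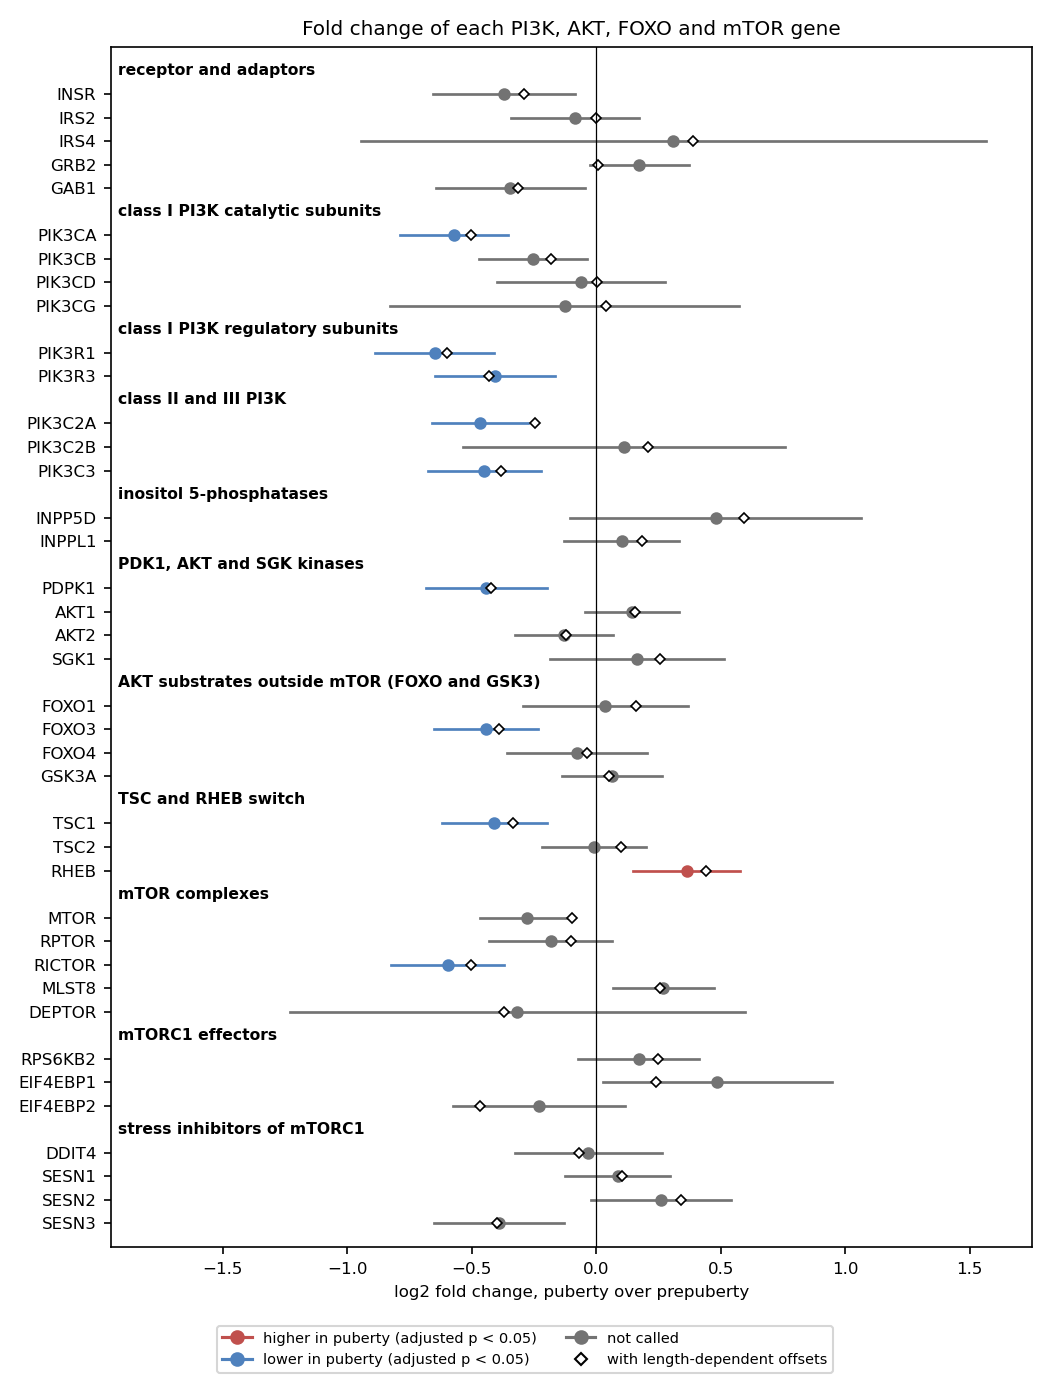
Log2 fold change (puberty over prepuberty) of each of the 39 genes, grouped by role; filled points and lines are the edgeR estimate with its 95% interval, and open diamonds the estimate with length-dependent offsets. The 9 blue genes were lower and RHEB, in red, was higher; the other 29 were not called.

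Gene length entered these values. Across all tested genes, log2 fold change went down with the listed gene length (Spearman's rho -0.28, n = 16588 genes, which are not independent replicates), and the members were long, with a median of 3372 nt against 1903 nt for all tested genes. Across the 39 members rho was -0.022. With the offsets described next, rho was 0.26 across the members and 0.0028 across all tested genes. With offsets that remove the length trend from each library, 5 members were lower (12.8%, where 2.74% of all tested genes were lower) and 1 was higher (2.56%, where 2.86% of all tested genes were higher). At a mean of at least 10 CPM, 5 of 35 members were lower with these offsets (14.3%), where 3.64% of the genes at that level were lower. The median log2 fold change of the members was -0.037 in that fit, and that of all tested genes 0.011. PIK3CA, PIK3R1, PIK3R3, FOXO3, RICTOR and RHEB kept their calls in that fit. PIK3C2A, PIK3C3, PDPK1 and TSC1 did not pass it, with adjusted p = 0.108, 0.056, 0.051 and 0.068. The log2 fold change of PIK3C2A, the longest member at 8835 nt, was -0.47 without these offsets and -0.25 with them, and that of TSC1 was -0.41 without and -0.34 with them. That of PIK3C3 was -0.45 without and -0.38 with them. PDPK1, a gene of 1825 nt, moved little, from -0.44 without the offsets to -0.42 with them.

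**Figure D2:**
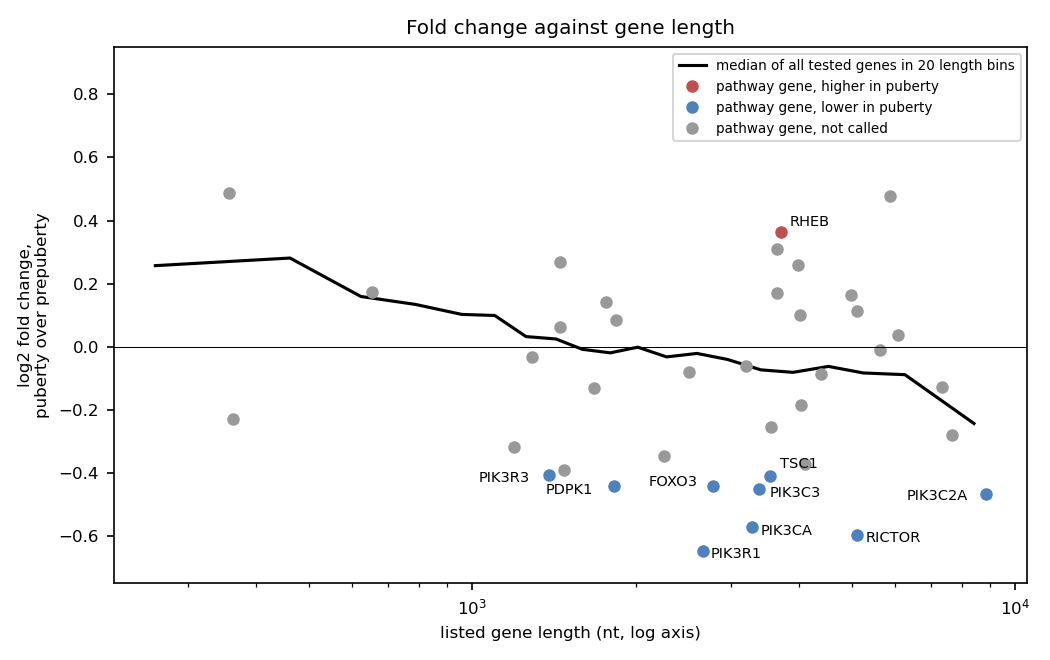
Log2 fold change (puberty over prepuberty) against listed gene length on a log axis; points are the 39 pathway genes and the black line is the median of all tested genes in 20 bins of length. The median falls to -0.24 in the bin of the longest genes, and the 9 lower genes lie below the line at every length.

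Fewer members were called by edgeR with any 1 library left out, as were fewer of all tested genes. Without puberty replicates 1, 2 and 3, in turn, 6, 4 and 5 members were lower, and without prepuberty replicates 1, 2 and 3, 0, 6 and 4. RHEB lost its call in each of these 6 fits, with adjusted p = 0.061 to 0.133. PIK3CA, PIK3R1, PIK3C2A and RICTOR were lower in 5 of the 6 and missed the threshold without prepuberty replicate 1, where edgeR called 0 genes of any kind, 3924 genes had an unadjusted p under 0.05 and DESeq2 called 7 members lower. FOXO3 passed only without prepuberty replicate 2 or puberty replicate 1, PIK3C3 only without prepuberty replicate 2 or puberty replicate 3, and PIK3R3 only without puberty replicate 1. PDPK1 and TSC1 were called in 0 of the 6 edgeR fits (lowest adjusted p = 0.052 and 0.057). DESeq2, with the same libraries left out, called PIK3CA, PIK3R1, PIK3C2A, PIK3C3, FOXO3, TSC1 and RICTOR in 6 of 6 fits. It called RHEB in 4 of 6, and PIK3R3 and PDPK1 in 3 of 6 each. The direction of all 10 was kept each time, though any such fit holds 5 of the same 6 libraries. With the length-dependent offsets and any 1 library left out, 0 members were called by edgeR, although 13 to 17 members had an unadjusted p under 0.05 in those fits.

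At the top of the pathway no member was called. GRB2, an adaptor that links receptors to RAS activation, was the most abundant of this group, with 155, 138 and 141 FPKM (counts per kilobase of listed gene length, scaled to the library total) in puberty replicates 1, 2 and 3, against 130, 134 and 120 FPKM in prepuberty replicates 1, 2 and 3. Its groups did not overlap, but its difference did not pass (log2 fold change 0.17, SE 0.087, adjusted p = 0.23) and was 0.0079 with length-dependent offsets. The insulin receptor gene INSR averaged 8.98 ± 1.3 FPKM in puberty and 11.6 ± 1.0 FPKM in prepuberty (SD, n = 3 each, as for all such values below), with a log2 fold change of -0.37 (adjusted p = 0.091). GAB1, a docking protein that recruits PI3K, had 9.18 ± 1.3 FPKM in puberty and 11.7 ± 0.89 FPKM in prepuberty (log2 fold change -0.35, adjusted p = 0.12). Neither INSR nor GAB1 overlapped between the groups. IRS2, an insulin receptor substrate, averaged 11.1 ± 0.46 FPKM in puberty and 11.8 ± 1.6 FPKM in prepuberty. IRS4, another such substrate, had only 10 to 36 counts in puberty and 12 to 26 in prepuberty, too few to show a change of the size seen elsewhere (95% interval of its log2 fold change -0.95 to 1.56).

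Of class I PI3K, the form that receptors activate, 1 of the 4 catalytic and both regulatory subunits among the members fell. PIK3CA, the catalytic subunit found in most tissues, had 11.5, 10.5 and 10.04 FPKM in puberty replicates 1, 2 and 3, against 15.3, 16.8 and 15.4 FPKM in prepuberty replicates 1, 2 and 3. Every puberty library lay below every prepuberty library, a fall of 1.49-fold (log2 fold change -0.57, SE 0.095, adjusted p = 0.014). PIK3CA overlaps KCNMB3 on the other strand, which averaged 14.7 counts against 861 for PIK3CA. PIK3CB, the other widely expressed catalytic subunit, averaged 7.47 ± 0.39 FPKM in puberty and 8.90 ± 0.060 FPKM in prepuberty. Its groups were also apart, but its log2 fold change of -0.26 did not pass (adjusted p = 0.12).

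PIK3CD and PIK3CG encode the catalytic subunits best known from leukocytes. PIK3CD averaged 5.60 ± 0.80 FPKM in puberty and 5.84 ± 0.66 FPKM in prepuberty, and PIK3CG 0.520 ± 0.12 FPKM in puberty and 0.566 ± 0.18 FPKM in prepuberty. Both had overlapping groups, and the sign of both differences turned with length-dependent offsets. Together the 4 catalytic subunits summed to 24.3 ± 0.22 FPKM in puberty and 31.1 ± 1.3 FPKM in prepuberty. PIK3CA made up 44.0 ± 3.1% of that sum in puberty and 50.8 ± 1.6% in prepuberty, and PIK3CD 23.1 ± 3.3% in puberty and 18.7 ± 1.7% in prepuberty.

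PIK3R1, which encodes the main regulatory subunit that holds and stabilises the catalytic one, showed the largest fall of the 39 members. It had 55.6, 48.8 and 50.3 FPKM in puberty replicates 1, 2 and 3, against 73.2, 77.4 and 91.5 FPKM in prepuberty replicates 1, 2 and 3. The fall was 1.57-fold (log2 fold change -0.65, SE 0.11, adjusted p = 0.014), and the groups were separated by more than the range of the puberty libraries. PIK3R3, a shorter regulatory subunit, had 45.8, 35.6 and 40.5 FPKM in puberty and 56.7, 52.5 and 52.4 FPKM in prepuberty, in the order of replicates 1, 2 and 3. It fell 1.33-fold (adjusted p = 0.042), but puberty replicate 2 was the lowest library, and without it the log2 fold change was -0.32 (adjusted p = 0.10). PIK3R1 and PIK3R3 together summed to 92.2 ± 8.6 FPKM in puberty and 135 ± 8.0 FPKM in prepuberty.

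The other PI3K classes act mainly on internal membranes. PIK3C2A, a class II enzyme of endocytosis, had 7.70, 7.36 and 8.35 FPKM in puberty replicates 1, 2 and 3, against 11.0, 10.9 and 10.4 FPKM in prepuberty replicates 1, 2 and 3. It fell 1.38-fold (log2 fold change -0.47, SE 0.085, adjusted p = 0.016), with no overlap of the groups. PIK3C3, the class III enzyme that starts autophagosome formation, had 17.4, 17.8 and 20.2 FPKM in puberty and 27.7, 23.8 and 24.2 FPKM in prepuberty, a fall of 1.37-fold (adjusted p = 0.027). PIK3C2B, the class II relative, was not called and varied within prepuberty, with 6.31, 6.93 and 3.34 FPKM in replicates 1, 2 and 3, against 6.39, 4.79 and 6.76 FPKM in puberty.

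The lipid phosphatases that oppose PI3K by removing a phosphate from its product did not pass. INPPL1, the widely expressed one, had 21.2, 16.7 and 19.9 FPKM in puberty replicates 1, 2 and 3, against 18.1, 18.3 and 17.5 FPKM in prepuberty replicates 1, 2 and 3 (log2 fold change 0.10, adjusted p = 0.55). INPP5D, known from blood and microglial cells, had 1.93, 3.18 and 3.62 FPKM in puberty and 2.13, 2.52 and 1.6 FPKM in prepuberty (log2 fold change 0.48, adjusted p = 0.25). The summed leukocyte markers were 279, 482 and 509 CPM in the same puberty libraries and 276, 321 and 242 CPM in the prepuberty ones. INPP5D and this sum were thus both highest in puberty replicates 2 and 3 and lowest in prepuberty replicate 3, and the part of leukocytes in the INPP5D values was not tested.

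**Figure D3:**
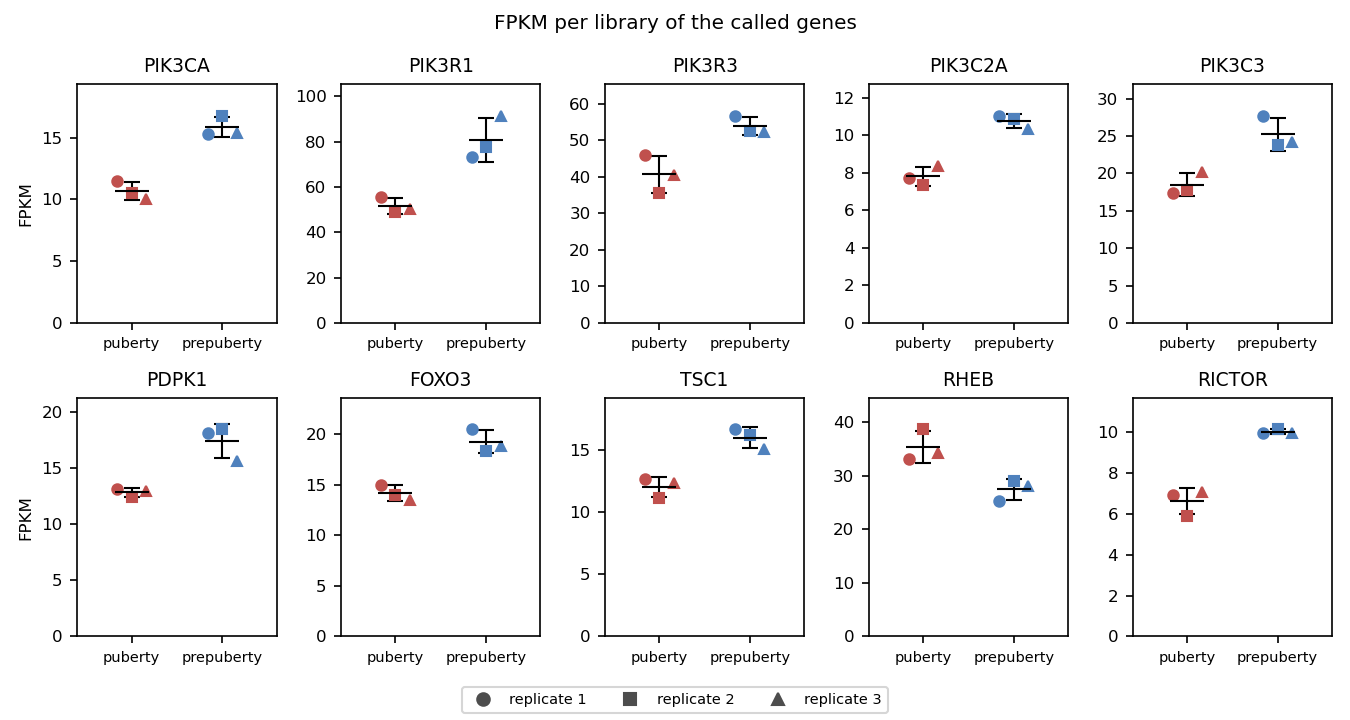
FPKM in each library of the 10 called genes, puberty in red and prepuberty in blue, with horizontal bars for the mean and error bars of 1 SD (n = 3 each); marker shapes are the replicate numbers. In none of the 10 panels do the groups overlap, and RHEB alone is higher in puberty.

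Among the kinases that read the PI3K lipid, the activating kinase fell while AKT itself was not called. PDPK1, which encodes PDK1, had 13.2, 12.4 and 12.9 FPKM in puberty replicates 1, 2 and 3, against 18.2, 18.5 and 15.7 FPKM in prepuberty replicates 1, 2 and 3. The difference was a 1.36-fold fall (log2 fold change -0.44, SE 0.11, adjusted p = 0.035). AKT1 averaged 64.3 ± 2.9 FPKM in puberty and 58.1 ± 3.2 FPKM in prepuberty, with a log2 fold change of 0.14 (95% interval -0.045 to 0.33). AKT2 averaged 46.3 ± 2.0 FPKM in puberty and 50.6 ± 3.4 FPKM in prepuberty, with a log2 fold change of -0.13 (95% interval -0.33 to 0.067). SGK1, an AKT relative that hormones and osmotic stress induce, was the most abundant kinase of the pathway, with 153, 105 and 159 FPKM in puberty replicates 1, 2 and 3, against 115, 124 and 133 FPKM in prepuberty replicates 1, 2 and 3. Puberty replicate 2 lay below all prepuberty libraries and the other puberty libraries above them, and SGK1 was not called (adjusted p = 0.52).

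Of the AKT substrates outside mTOR control, FOXO3 fell and its relatives did not pass. FOXO3 encodes the FOXO factor with the highest level here, with 15.0, 13.99 and 13.5 FPKM in puberty replicates 1, 2 and 3, against 20.5, 18.3 and 18.9 FPKM in prepuberty replicates 1, 2 and 3. It was 1.36-fold lower (log2 fold change -0.44, SE 0.093, adjusted p = 0.022), with no overlap. FOXO1 averaged 4.38 ± 0.89 FPKM in puberty and 4.26 ± 0.22 FPKM in prepuberty, and FOXO4 10.8 ± 0.80 FPKM in puberty and 11.3 ± 1.4 FPKM in prepuberty. FOXO3 held 48.4 ± 2.6% of the summed FPKM of the 3 FOXO genes in puberty and 55.2 ± 1.1% in prepuberty. The glycogen synthase kinase gene GSK3A, which AKT inhibits, had 83.5, 77.6 and 75.1 FPKM in puberty replicates 1, 2 and 3, against 72.4, 81.8 and 71.4 FPKM in prepuberty replicates 1, 2 and 3, and these groups overlapped.

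At the switch that controls mTOR complex 1, the activator rose and a part of its inhibitor fell. RHEB had 33.2, 38.7 and 34.1 FPKM in puberty replicates 1, 2 and 3, against 25.2, 29.1 and 28.0 FPKM in prepuberty replicates 1, 2 and 3. The puberty libraries were all higher, by 1.29-fold on average (adjusted p = 0.042, with a log2 fold change of 0.36 and an SE of 0.095). With length-dependent offsets its log2 fold change was 0.44 (adjusted p = 0.037). TSC1, which stabilises the TSC complex, had 12.7, 11.2 and 12.3 FPKM in puberty and 16.7, 16.2 and 15.1 FPKM in prepuberty. It fell 1.33-fold (adjusted p = 0.029), but was not called with length-dependent offsets (adjusted p = 0.068). Neither RHEB nor TSC1 was called by edgeR with any 1 library left out, whereas DESeq2 called TSC1 in 6 of those 6 cases and RHEB in 4. TSC2, the subunit that acts on RHEB, averaged 24.3 ± 1.8 FPKM in puberty and 24.4 ± 1.7 FPKM in prepuberty, with a log2 fold change of -0.0098 (95% interval -0.22 to 0.20).

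Of the 5 members in the mTOR complexes, RICTOR alone was called. RICTOR, which defines mTOR complex 2, had 6.90, 5.90 and 7.08 FPKM in puberty replicates 1, 2 and 3, against 9.94, 10.1 and 9.96 FPKM in prepuberty replicates 1, 2 and 3. The SD of the prepuberty libraries was only 0.113 FPKM, and the fall was 1.51-fold (log2 fold change -0.60, SE 0.10, adjusted p = 0.014). RPTOR, which defines mTOR complex 1, averaged 15.4 ± 2.1 FPKM in puberty and 17.5 ± 0.24 FPKM in prepuberty, overlapped between groups and was not called (log2 fold change -0.18, adjusted p = 0.31). The kinase gene MTOR averaged 14.7 ± 1.0 FPKM in puberty and 17.8 ± 0.19 FPKM in prepuberty, with groups apart. Its difference did not pass (log2 fold change -0.28, adjusted p = 0.061) and was -0.099 with length-dependent offsets. MTOR, a gene of 7653 nt, overlaps ANGPTL7 on the other strand, which averaged 389 counts against 2463 for MTOR.

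MLST8, the small subunit of both mTOR complexes, had 29.2, 28.3 and 31.0 FPKM in puberty replicates 1, 2 and 3, against 24.8, 23.8 and 24.7 FPKM in prepuberty replicates 1, 2 and 3. These groups did not overlap, but the log2 fold change of 0.27 did not pass (adjusted p = 0.085). DEPTOR, an inhibitor of mTOR, varied widely within both groups, with 4.44 to 8.78 FPKM in puberty and 4.81 to 13.0 FPKM in prepuberty. TSC2, MLST8 and PDPK1 lie close together on chromosome 25 as the authors' table lists it (1505276 to 1535116, 1643438 to 1646988 and 1932890 to 1991306, build not given in the sources used here), and of these neighbours PDPK1 alone was called.

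The targets of mTOR complex 1 and its stress inhibitors had no called member. EIF4EBP2, a repressor that holds the cap-binding factor of translation until mTOR phosphorylates it, had 82.4, 59.1 and 81.4 FPKM in puberty replicates 1, 2 and 3, against 98.9, 84.4 and 78.0 FPKM in prepuberty replicates 1, 2 and 3. Its relative EIF4EBP1 had 19.5, 28.5 and 20.9 FPKM in puberty and 15.6, 16.3 and 17.1 FPKM in prepuberty. EIF4EBP1 was higher in each puberty library than in any prepuberty one, but did not pass (log2 fold change 0.49, adjusted p = 0.15), and as a gene of 357 nt had 0.24 with length-dependent offsets. RPS6KB2, an S6 kinase, averaged 11.5 ± 0.51 FPKM in puberty and 10.2 ± 1.2 FPKM in prepuberty. Its locus overlaps MACROD1 on the same strand, so some of its reads are uncertain.

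DDIT4, a stress gene whose product restores TSC activity, had 41.8, 57.7 and 47.7 FPKM in puberty replicates 1, 2 and 3, against 50.8, 44.7 and 55.0 FPKM in prepuberty replicates 1, 2 and 3, with overlapping groups. The sestrins restrain mTOR complex 1 when amino acids are short. SESN3 averaged 24.0 ± 1.8 FPKM in puberty and 31.5 ± 3.8 FPKM in prepuberty (log2 fold change -0.39, adjusted p = 0.059, or 0.040 by DESeq2). SESN2 averaged 7.34 ± 0.70 FPKM in puberty and 6.12 ± 0.69 FPKM in prepuberty (log2 fold change 0.26, adjusted p = 0.20), and SESN1 19.0 ± 1.1 FPKM in puberty and 17.8 ± 0.35 FPKM in prepuberty. SESN3 made up 47.7 ± 1.6% of the summed sestrin FPKM in puberty and 56.7 ± 2.0% in prepuberty.

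Ratios of members within a library do not depend on how libraries are scaled to each other, although gene length still bears on them. For 9 pairs picked after the values were seen, they are given as a description with no test. RICTOR over RPTOR was 0.443, 0.448 and 0.406 in puberty replicates 1, 2 and 3, against 0.561, 0.588 and 0.572 in prepuberty replicates 1, 2 and 3. RHEB over TSC1 was 2.62, 3.47 and 2.76 in puberty, against 1.51, 1.79 and 1.86 in prepuberty, in the same order. Both ratios had groups apart, and so had RICTOR over MLST8, with 0.224 ± 0.014 in puberty and 0.410 ± 0.014 in prepuberty. TSC1 over TSC2 was 0.497 ± 0.013 in puberty and 0.656 ± 0.029 in prepuberty, and PIK3CA over PIK3CB 1.43 ± 0.11 in puberty and 1.78 ± 0.10 in prepuberty. PIK3CA over PIK3R1 was 0.207 ± 0.0079 in puberty and 0.198 ± 0.026 in prepuberty, with overlapping groups.

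**Figure D4:**
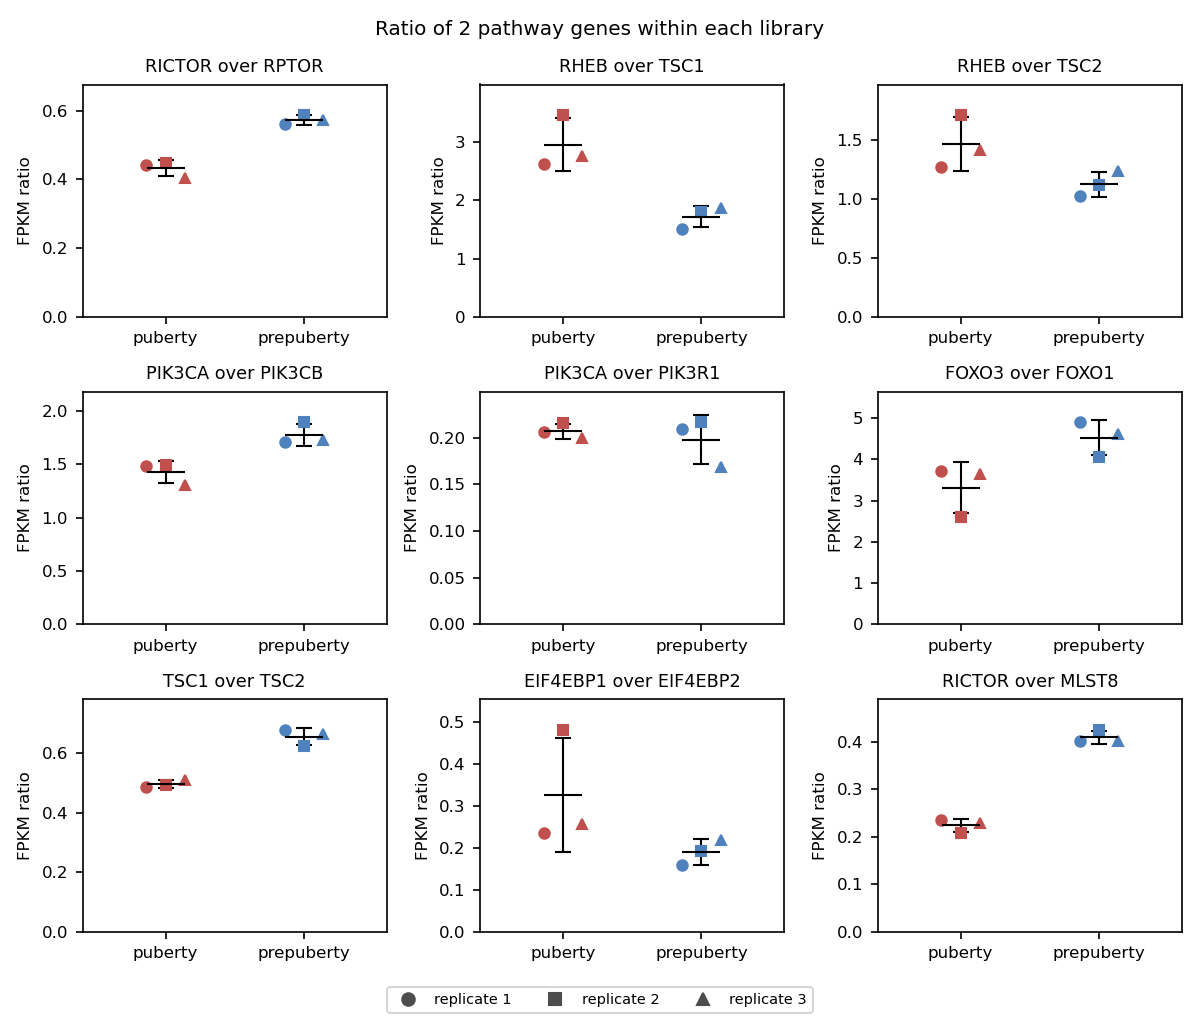
FPKM of a gene divided by that of another in the same library, for 9 pairs, puberty in red and prepuberty in blue, with horizontal bars for the mean and error bars of 1 SD (n = 3 each). Only PIK3CA over PIK3R1 has overlapping groups; RICTOR over MLST8 averages 0.224 in puberty and 0.410 in prepuberty.

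Among 95 other listed genes of the pathway, 77 were tested, of which 4 were higher (5.19%) and 5 lower (6.49%), close to the 5.85% and 5.64% of all tested genes. The lower ones included the RAS exchange factor genes SOS1 and SOS2, the docking protein gene FRS2 of fibroblast growth factor receptors and FNIP1, whose product works with folliculin. FRS2 averaged 4.91 ± 1.3 FPKM in puberty and 9.56 ± 0.83 FPKM in prepuberty, a fall of 1.95-fold (adjusted p = 0.024). SOS1 and SOS2 fell 1.45-fold and 1.42-fold and FNIP1 1.28-fold. With length-dependent offsets SOS1 and FNIP1 were not called (adjusted p = 0.061 and 0.092). In that fit 4 of the 77 genes were lower (5.19%) and 1 was higher, where 2.74% of all tested genes were lower and 2.86% higher. With single libraries left out, edgeR called FRS2 and SOS2 in 3 of 6 fits and SOS1 in 2, and without prepuberty replicate 1 or puberty replicate 2 it called 0 of the 77 genes lower.

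The 4 that rose were PRR5, which encodes a subunit of mTOR complex 2, AKT1S1, which encodes an inhibitor of mTOR complex 1 that AKT phosphorylates, and the Ragulator genes LAMTOR2 and LAMTOR4. PRR5 averaged 13.3 ± 1.3 FPKM in puberty and 7.39 ± 1.4 FPKM in prepuberty, a rise of 1.79-fold (adjusted p = 0.022, or 0.037 with length-dependent offsets). PRR5, LAMTOR2 and LAMTOR4 were called in 2 of the 6 fits with a library left out, those without prepuberty replicate 2 or puberty replicate 3, and AKT1S1 in 0. PRR5 and RICTOR, both of mTOR complex 2, moved in opposite directions. AKT1S1 rose 1.44-fold, LAMTOR2 1.36-fold and LAMTOR4 1.38-fold, and these 3 short genes were not called with length-dependent offsets (adjusted p = 0.081, 0.21 and 0.13).

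Of 35 genes listed as targets of FOXO factors, 25 were tested, of which 1 was higher (4%) and 3 lower (12%), where 5.85% of all tested genes were higher and 5.64% lower. With length-dependent offsets 0 were higher and 1 was lower (4%), where 2.74% of all tested genes were lower. Their median log2 fold change was -0.14, against 0.0054 for all tested genes. With length-dependent offsets these medians were -0.071 and 0.011. TRIB2, which encodes a pseudokinase that restrains FOXO3 in human cells, averaged 24.2 ± 2.9 FPKM in puberty and 38.6 ± 3.4 FPKM in prepuberty, a fall of 1.6-fold (adjusted p = 0.014, or 0.028 with length-dependent offsets). The cyclin gene CCND2 fell 1.41-fold and the repressor gene BCL6 1.27-fold, and the mitophagy gene BNIP3 rose 1.27-fold. CCND2, BCL6 and BNIP3 were not called with length-dependent offsets (adjusted p = 0.10, 0.11 and 0.29). TRIB2 was called in 5 of the 6 fits with a library left out (not without prepuberty replicate 1), CCND2 in 1, without prepuberty replicate 3, and BCL6 and BNIP3 in 0. FOXO factors activate some of these targets and repress others, so the list has no single direction.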

How the data were processed

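The authors' deposited count table holds raw read counts per gene and library, and the deposited FPKM table holds the authors' FPKM for the same genes. Dividing each count by the gene's listed length and a library constant gave the FPKM back (largest relative deviation 2.18e-14). Per the submitters' processing notes, reads were handled with CASAVA 1.8 and fastp, HISAT2 2.0.5 is listed too, and DESeq2 1.20.0 and featureCounts 1.5.0-p3 complete the list. These notes name human builds although the gene identifiers are those of goat, and no source used here gives the strand setting. Of the 39 members, 20 have a listed length divisible by 3, as do 65.2% of all protein-coding genes. Many gene models may thus hold coding sequence only, though such a length does not show this for any given gene. Levels compared between genes are therefore approximate.

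Genes passing edgeR's filterByExpr (minimum count 10) were scaled by TMM and tested with the quasi-likelihood F test of edgeR 4.0.16 in R 4.3.3, puberty over prepuberty, no covariate. Adjusted p-values run over all 16588 tested genes, fold changes come from this fit, and levels are the authors' FPKM. CPM values use TMM-scaled totals. Length-dependent offsets are a lowess trend (span 0.3) of log2 deviation on log2 length in each library. The code was tested on simulated data. The labels state no pairing of libraries by replicate number, and the main fit used none. Members, gene lists and roles were chosen with earlier results of these data known. Full values are given for called members and for the member with the highest FPKM of each role, and for up to 8 called genes of each other list; FNIP1 was added after its values were seen. Some genes of these lists count in the totals but are not reported here by name. Alternatives were RLE scaling, other filters, DESeq2 1.42.0, a replicate block, length offsets and leaving out each library. No sequences are shown.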

Additional observations from a re-analysis of the deposited data

How the results depend on the processing

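RLE scaling, dropping the count filter and requiring 1 CPM in 3 libraries each gave 9 members lower and 1 higher, and DESeq2 gave 11 and 1. With length-dependent offsets 475 genes were higher and 455 lower, among them 1 and 5 members, 1 and 4 other pathway genes and 0 and 1 FOXO targets. With length-bin offsets the counts were 452 and 462 genes, 1 and 5 members, 1 and 4 other pathway genes, and 0 and 1 FOXO targets. Same-numbered libraries did not deviate together (correlations 0.053, -0.097 and -0.096), and not every library correlated best with its own number. With 3 libraries per group, these values cannot exclude that same-numbered libraries were handled together. The labels state no pairing. With a replicate block, edgeR called 366 genes higher and 354 lower, among them 0 and 4 members (PIK3CA, PIK3R1, PIK3C2A and RICTOR), 1 and 2 other pathway genes, and 0 and 1 FOXO targets. With the block and length-dependent offsets together 1 gene was higher and 1 lower, with 0 members, 0 other pathway genes and 0 FOXO targets in either direction, where 14 members had an unadjusted p under 0.05. DESeq2 called 9 other pathway genes lower and 2 FOXO targets higher.

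Leaving out each library in turn, edgeR called 0 to 728 genes higher and 0 to 540 lower, with 0 members higher and 0 to 6 lower, 0 to 4 other pathway genes higher and 0 to 4 lower, and 0 to 1 FOXO targets higher and 0 to 2 lower. With length-dependent offsets as well, an alternative chosen after seeing the data, the counts were 0 to 142 and 0 to 65 genes, 0 members, 0 other pathway genes higher and 0 to 1 lower, and 0 FOXO targets. DESeq2 on the same 5 libraries called 927 to 1309 and 835 to 1114 genes, 0 to 2 members higher and 7 to 11 lower, 4 to 5 other pathway genes higher and 4 to 9 lower, and 0 to 2 and 1 to 4 FOXO targets. The members' median log2 fold change ran from -0.15 to 0.020 over these fits.

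The 10 called members and 18 others kept their sign in all 26 alternatives, and 11 uncalled members did not. With length-dependent offsets the log2 fold change was 0.0015 for PIK3CD, 0.038 for PIK3CG and 0.099 for TSC2, and with length-bin offsets 0.026, 0.11 and 0.068 for the same genes. With the replicate block and the offsets it was 0.064 for PIK3CG, 0.098 for TSC2 and 0.0059 for IRS2. With 1 library left out, over the 3 kinds of fit, log2 fold changes ran from -0.20 to 0.066 for IRS2, -0.35 to 0.82 for IRS4, -0.038 to 0.21 for GRB2, -0.15 to 0.11 for PIK3CD, -0.34 to 0.30 for PIK3CG and -0.15 to 0.40 for PIK3C2B. They ran from -0.14 to 0.27 for FOXO1, -0.18 to 0.031 for FOXO4, -0.066 to 0.15 for TSC2, -0.65 to 0.18 for DEPTOR and -0.21 to 0.073 for DDIT4. The causes of these changes were not tested. Changes of the low-count members IRS4 and PIK3CG were not detectable at this depth unless large.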
